A study of Rattus norvegicus with 32 samples.

Results

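The genes described are the numbered subunits of the proteasome in rat brain tissue, taken as every row of the count table whose symbol is Psma, Psmb, Psmc or Psmd followed by a number. They were 39 of 34322 gene symbols: 19 of the 20S core (Psma and Psmb) and 20 of the 19S cap (Psmc and Psmd). Enough reads for testing were present for 38 of them, among 17059 genes tested. The exception was Psma8, an alpha subunit of the testis, with 10 counts in all 32 libraries together and at most 2 in any library.

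Polyadenylated RNA of wild-type rats was sequenced in 4 groups of 8 libraries each. The tissue label is brain, and the design text gives the shell of the nucleus accumbens, a part of the ventral striatum. The animals had been conditioned by shock with either a neutral cue or a lemon odour (the anxiety cue), and cannabidiol (CBD, a constituent of cannabis) or its vehicle preceded tests of anxiety held with that cue. Each cue was combined with vehicle and with CBD, which gives the 4 groups. All 4 groups went through the shock protocol. Age, sex, strain and dose are not given in the labels, and no label ties a library to an animal, so that the p-values measure the spread between libraries, which may in part be technical. Library numbers within a group follow the order of deposition.

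The proteasome is the protease complex that degrades proteins tagged with ubiquitin. Its 20S core is a barrel of stacked rings: the alpha subunits form the outer rings and the gate, and the beta subunits form the inner rings, where Psmb5, Psmb6 and Psmb7 carry the proteolytic sites. The 19S cap binds ubiquitin chains, removes them and unfolds the substrate with a ring of ATPases, Psmc1 to Psmc6. Neurons use this system at synapses, where protein turnover takes part in plasticity. In bulk tissue, fewer cells of a type and less RNA per cell cannot be told apart.

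Library depth ranged from 11.65 to 24 M counts. The 10 markers of medium spiny neurons, the principal neurons of the striatum, were tested and present in every group, with a summed level of 1305 to 8091 CPM, a count scaled by library size and edgeR's TMM factor. Neighbouring tissue differed between libraries. Slc17a6, a vesicular glutamate transporter found in subcortical neurons, reached 20 plain CPM (scaled by library size alone, with no TMM factor) in 6 libraries, of which 3 were in the vehicle neutral-cue group. Plin1, a gene of fat cells, reached 5 plain CPM in 10 libraries, and Alb, the albumin gene of liver, reached 20 plain CPM in 10 libraries. Both were uneven between groups. Below the Plin1 limit were 3 vehicle neutral-cue, 5 vehicle anxiety-cue, 8 CBD neutral-cue and 6 CBD anxiety-cue libraries. Below the Alb limit were 8, 6, 4 and 4 libraries in the same order.

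No subunit differed between groups past the threshold. With edgeR's quasi-likelihood test and Benjamini-Hochberg adjustment over all genes tested, 0 of 38 subunits passed an adjusted p of 0.05 in any of the 4 pairwise comparisons or in the interaction of cue and CBD, and the share of all genes that passed was 0% in each. The subunits nevertheless leaned one way. In vehicle libraries, 35 of 38 had a log2 fold change below 0 for the anxiety cue against the neutral cue, beside 49.9% of all genes, with a median of -0.12 (0.923-fold). At an unadjusted p under 0.05, 9 of 38 subunits differed in this comparison, all lower with the anxiety cue, beside 12.7% of all genes in either direction and 6.34% that were lower. DESeq2 also called 0 subunits here and gave 9 at an unadjusted p under 0.05, beside 2359 of all 17059 genes. All 38 genes had overlapping groups in each of the 4 pairwise comparisons.

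Most genes of the core and of the cap were below 0 in 2 comparisons. For the anxiety cue in vehicle libraries, 17 of 18 core genes and 18 of 20 cap genes were below 0, with medians of -0.12 and -0.088. For CBD against vehicle with the neutral cue, the counts were again 17 of 18 and 18 of 20, with medians of -0.098 and -0.074, where 49.1% of all genes were below 0. Both comparisons use the same 8 vehicle neutral-cue libraries, so they are not independent of each other. In the CBD comparison 7 of 38 subunits had an unadjusted p under 0.05, all lower with CBD, beside 22.6% of all genes and 12% that were lower. DESeq2 called 1 subunit there, Psmd4, beside 2.05% of all genes. Without the 10 libraries high in Alb, which keeps 4 CBD neutral-cue libraries, the cap median for CBD with the neutral cue was -0.039.

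Several lists of cell type markers, though not all, stood apart from 0 in the CBD comparison, with 0 markers past the threshold. For CBD with the neutral cue, oligodendrocyte markers were at a median of -0.42, with 7 of 7 below 0. All 7 had an unadjusted p under 0.05, beside 22.6% of all genes and 12% that were lower. Their summed level was 7368 to 11050 CPM with vehicle and 3771 to 7973 CPM with CBD. Microglial markers were at -0.23 with 10 of 10 below 0, and septal and subcortical markers at -0.75 with 7 of 8 below 0, 6 of the list at an unadjusted p under 0.05. Fat markers were at -3.64 with 5 of 5 below 0. Astrocyte markers were at -0.019 with 4 of 6 below 0, and endothelial and mural markers at -0.002 with 3 of 6 below 0. Choroid plexus markers were at -0.50 with 2 of 3 below 0. Medium spiny neuron markers were at 0.52 with 10 of 10 above 0. Cortical markers were at 1.51 with 3 of 3 above 0, and liver markers at 2.10 with 3 of 4 above 0. Of the 6 cortical genes listed, only these 3 were tested. Their summed level was 1407 CPM in CBD neutral-cue library 6. The group medians of this sum were 235 CPM with CBD and 181.7 CPM with vehicle. An unadjusted p under 0.05 also held for 4 of 5 fat, 3 of 10 microglial, 2 of 3 choroid plexus and 2 of 4 liver markers. It held for 2 of 10 medium spiny neuron, 2 of 6 astrocyte, 1 of 3 cortical and 0 of 6 endothelial and mural markers. The part of all these markers in the subunit values was not tested.

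The medians of the comparisons without the vehicle neutral-cue group lay near 0. For the anxiety cue in CBD libraries, the median was 0.020 in the core and 0.028 in the cap, 30 of 38 subunits were above 0 (48.8% of all genes) and 0 had an unadjusted p under 0.05 (3.94% of all genes). For CBD against vehicle with the anxiety cue, the medians were 0.033 and 0.010, 26 of 38 were above 0 (48.3% of all genes) and 0 had an unadjusted p under 0.05 (1.58% of all genes). The interaction, which is the cue effect in CBD libraries minus that in vehicle libraries, was above 0 for 35 of 38 subunits (48.8% of all genes), with medians of 0.14 in the core and 0.11 in the cap. Of these, 6 had an unadjusted p under 0.05, all above 0, beside 13.8% of all genes and 7.02% that were above 0: Psmc2, Psmb3, Psmd4, Psmd6, Psmb6 and Psmc5, with edgeR adjusted p of 0.336 to 0.36.

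**Figure D1:**
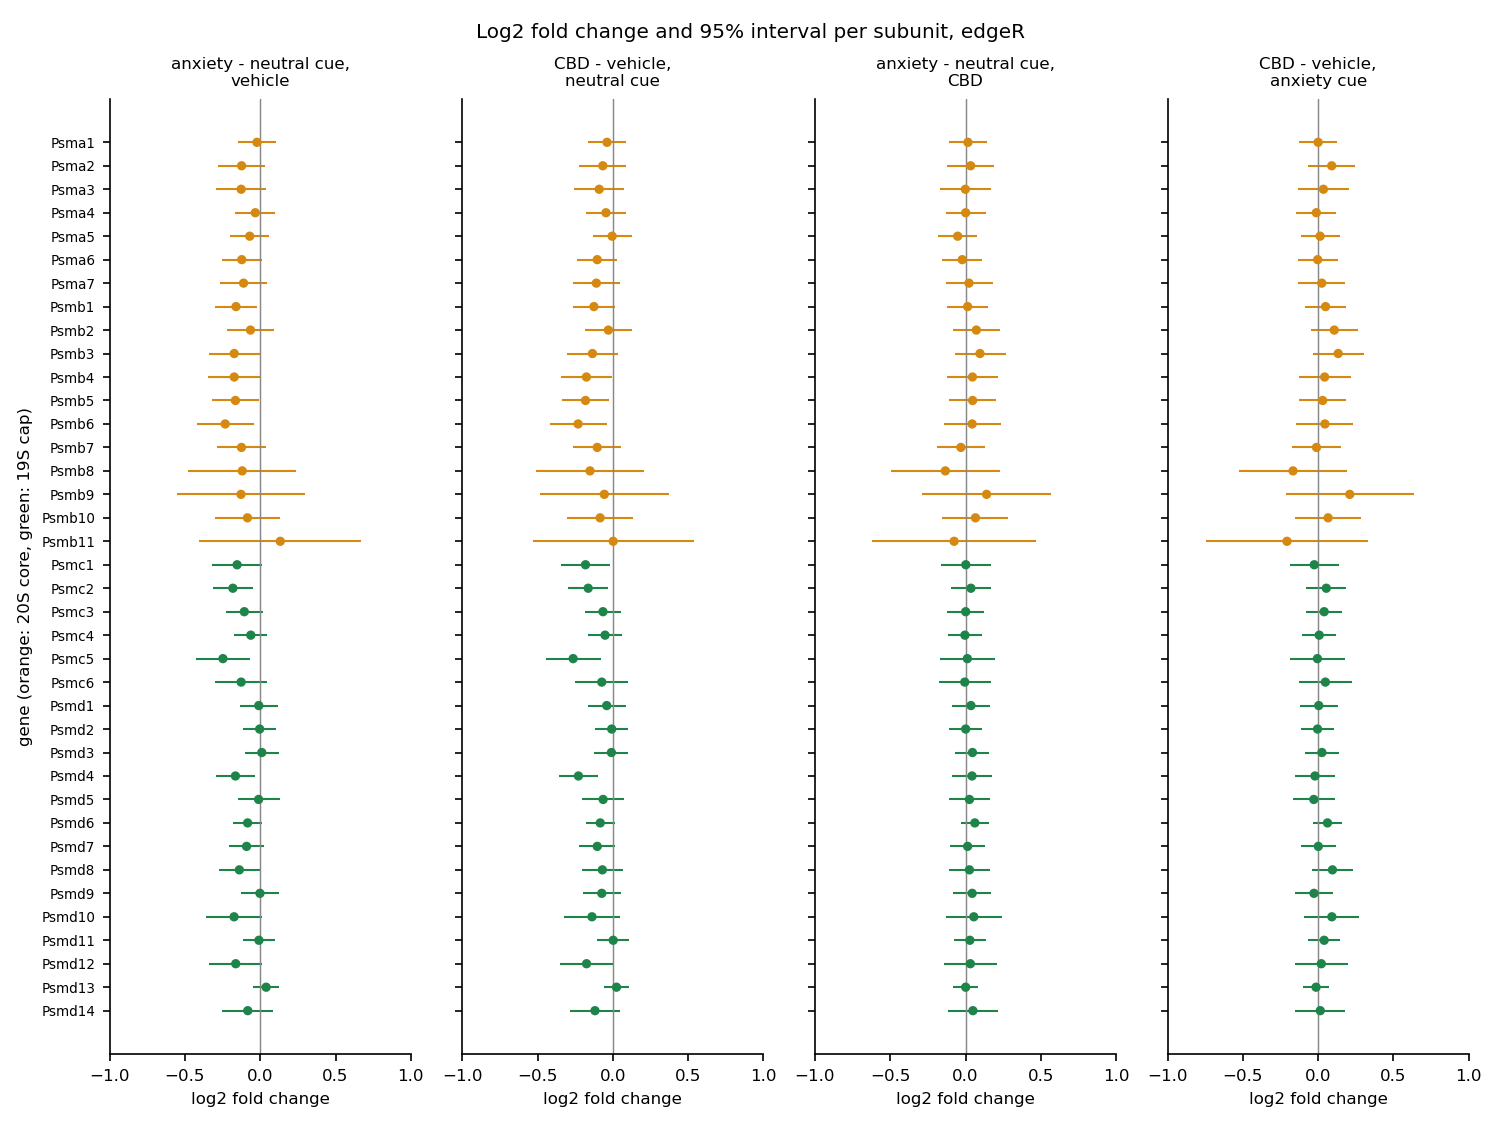
Log2 fold change (horizontal axis) of each of the 38 subunits (vertical axis) with its 95% interval from edgeR, in 4 comparisons; orange is the 20S core and green the 19S cap. In the 2 left panels most points lie left of 0, and in the 2 right panels the points lie around 0.

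One library held much of this lean. Vehicle neutral-cue library 6 was the highest of all 32 libraries for 26 of 38 subunits (15 core and 11 cap), while it was the highest for 11.3% of all genes. It lay above the mean of its own group for 37 of 38 subunits, by a median of 0.32 on the log2 scale, where the median over all genes was -0.019. The excess was unequal between the parts of the complex, at a median of 0.43 for core genes and 0.24 for cap genes. It was also unequal within the cap. Against the mean of all libraries, library 6 stood at 0.538 for Psmb1 to Psmb7, 0.403 for the alpha ring and 0.375 for the cap's ATPases. It stood at 0.234 for the cap's lid and 0.118 for Psmd1, Psmd2 and Psmd4. Its total was 20.3 M counts and its TMM factor 0.965, within the range of the other libraries. The rest of its own group had higher factors, of 1.005 to 1.035.

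The mean log2 CPM of the 14 constitutive core genes, set against its mean over all libraries, ran from -0.15 in library 3 over a median of 0.055 to 0.47 in library 6 of the vehicle neutral-cue group. In the other groups it ran from -0.17 to 0.012 (vehicle, anxiety cue), from -0.14 to 0.094 (CBD, neutral cue) and from -0.12 to 0.13 (CBD, anxiety cue). All 4 groups overlapped. For the 17 cap genes without the assembly chaperones, library 6 was at 0.26, followed in its group by library 4 at 0.17 and library 8 at 0.15. The difference of core minus cap was 0.21 in library 6, and between -0.083 and 0.10 in the other 31 libraries.

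**Figure D2:**
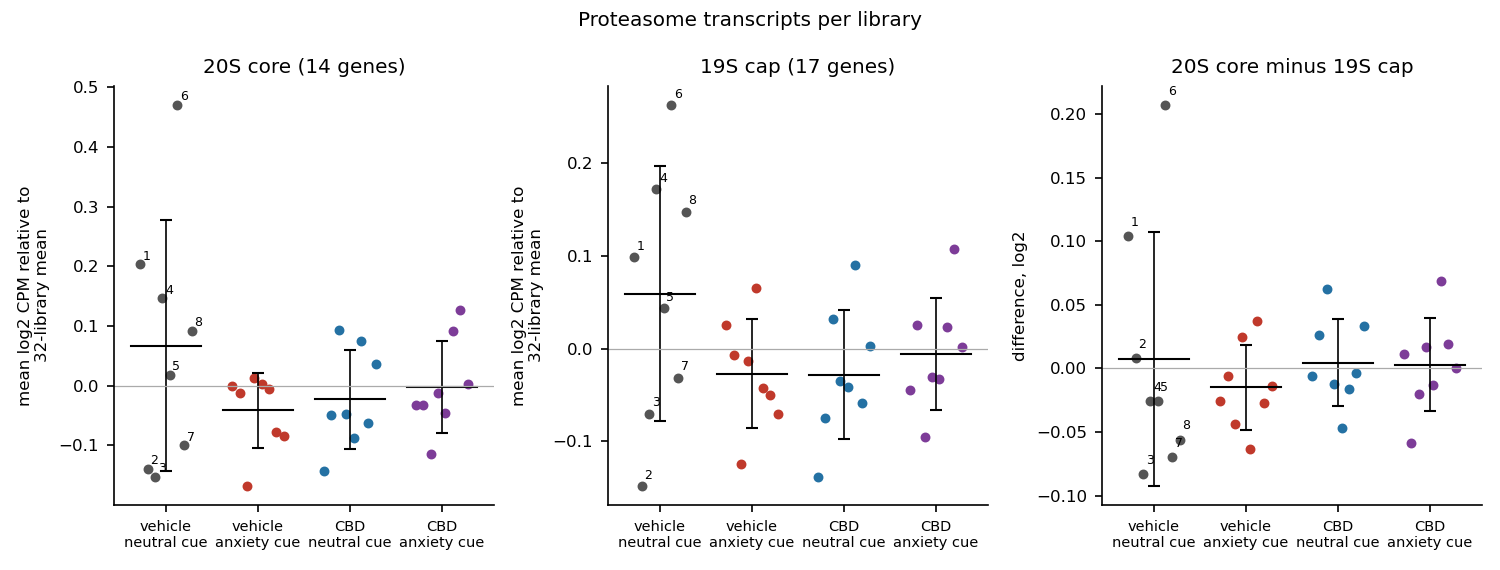
Mean log2 CPM of the constitutive 20S core genes (left) and of the 19S cap genes without chaperones (middle) relative to the 32-library mean, and their difference (right), by group; each point is a library, lines and bars are the group mean and SD (n = 8), and numbers mark the vehicle neutral-cue libraries. Library 6 of that group is the highest point in all 3 panels, at 0.47, 0.26 and 0.21.

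Without library 6, the medians for the anxiety cue in vehicle libraries were -0.063 in the core and -0.058 in the cap. In that comparison 28 of 38 subunits were below 0, beside 50.13% of all genes. For CBD with the neutral cue the medians were -0.044 and -0.040, with 31 of 38 below 0, beside 49.15% of all genes. For the interaction they were 0.066 and 0.067. Unadjusted p under 0.05 then held for 3, 2 and 2 subunits in these comparisons, none of them in the core, beside 12.1%, 23.1% and 14.3% of all genes. The vehicle neutral-cue group had the highest of the 4 group means for 32 of 38 subunits (36.9% of all genes) with library 6 and for 21 of 38 (36.6% of all genes) without it. The markers in library 6 also departed from their means over all libraries: microglia by 0.31, medium spiny neurons by 0.23, septal and subcortical cells by 0.17, astrocytes by 0.058, oligodendrocytes by 0.011, cortical cells by -0.16, choroid plexus by -0.39, endothelial and mural cells by -0.40, liver by -0.43 and fat by -0.66 on the log2 scale. Their part in the subunit levels was not tested.

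The vehicle neutral-cue libraries were also the most scattered. The median SD of log2 CPM over the subunits was 0.21 in that group (0.17 without library 6), against 0.12 with vehicle and the anxiety cue, 0.12 with CBD and the neutral cue, and 0.099 with CBD and the anxiety cue. That group had the widest SD for 30 of 38 subunits, beside 53.3% of all genes. At the low end, vehicle neutral-cue library 2 was the lowest of all libraries for 10 subunits, beside 8.8% of all genes.

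**Figure D3:**
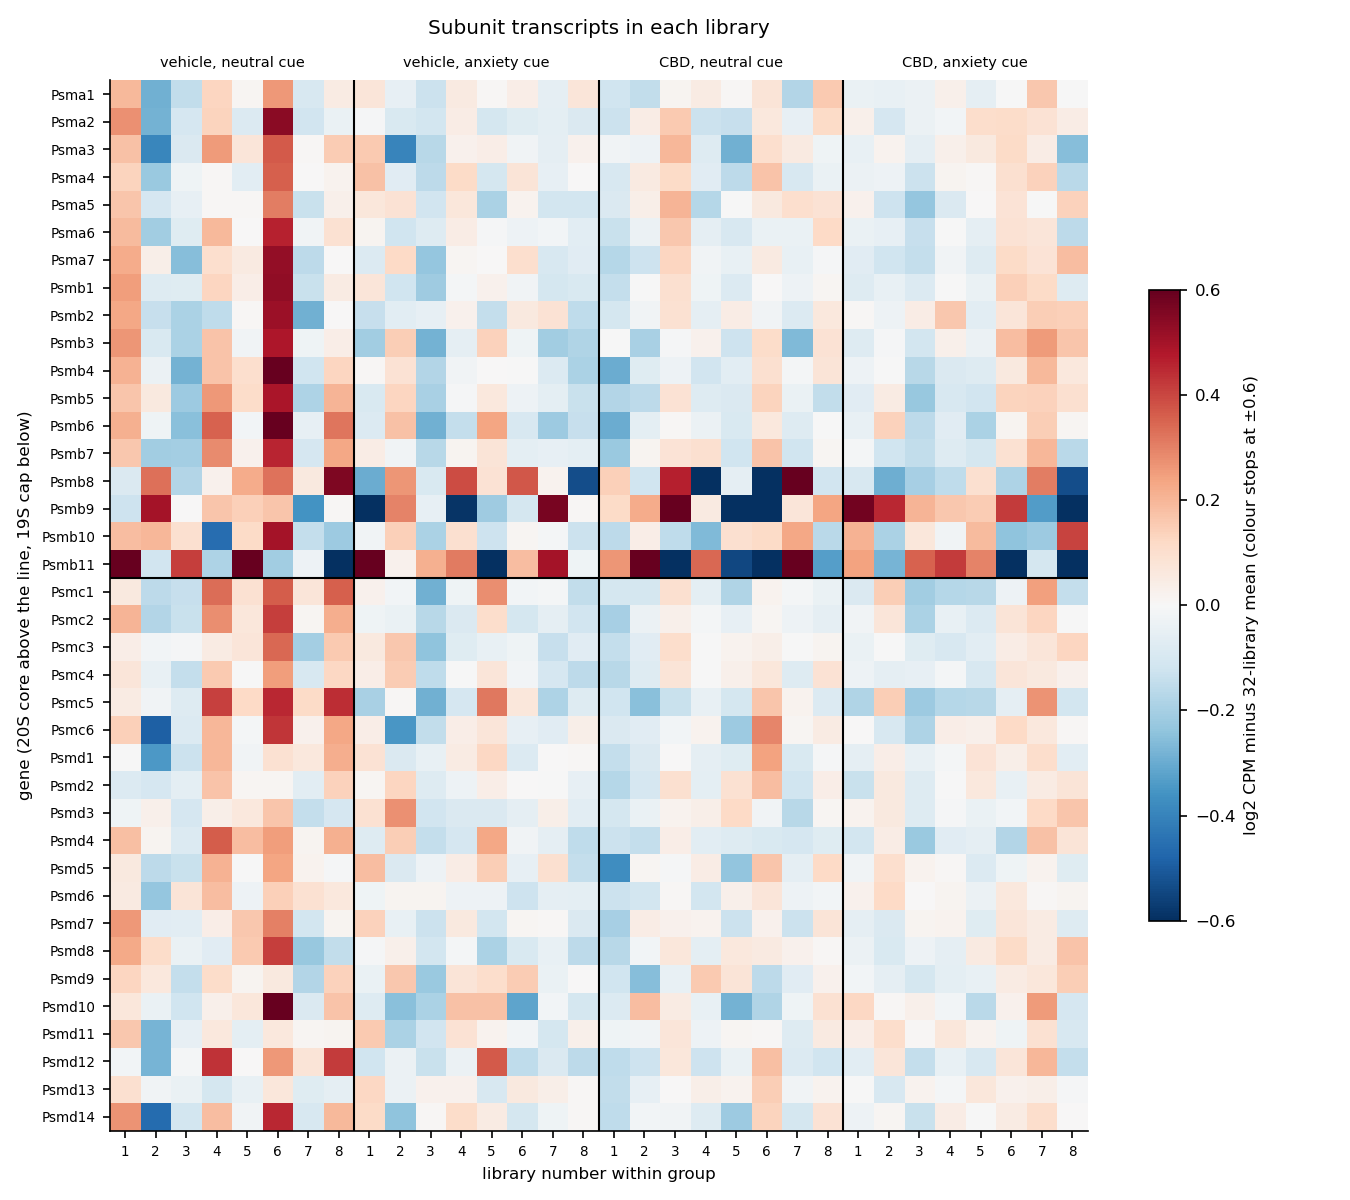
Log2 CPM of each subunit (rows) in each of the 32 libraries (columns, numbered within their group) minus its mean over all libraries; the colour scale stops at 0.6 in both directions. The column of vehicle neutral-cue library 6 is dark for nearly the whole core and paler for the cap, and the inducible Psmb8, Psmb9 and Psmb11, which have few reads, vary with no such column.

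The alpha ring forms the gate of the barrel, and its 7 tested genes were below 0 in both comparisons against the vehicle neutral-cue group. Their log2 fold changes for the anxiety cue in vehicle libraries ran from -0.13 to -0.022, with a median of -0.11, and 0 had an unadjusted p under 0.05. Psma6 ran from 87.3 over 104 to 139 CPM (lowest, median and highest) with vehicle and the neutral cue, from 92.9 over 99.3 to 104 with vehicle and the anxiety cue, from 91.9 over 98.2 to 113 with CBD and the neutral cue, and from 90.4 over 97.8 to 107 with CBD and the anxiety cue. The groups overlapped, and the top value came from library 6. The cue difference in vehicle libraries was -0.12 ± 0.065 (SE; edgeR adjusted p = 0.40). Psma2 ran from 52.4 over 61.0 to 92.6 CPM with vehicle and the neutral cue and from 59.1 over 60.2 to 65.7 CPM with vehicle and the anxiety cue, a difference of -0.12 ± 0.077. Its medians were close and library 6 again gave the top value. Without library 6 the cue difference was -0.061 for Psma6 and -0.040 for Psma2.

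The constitutive beta ring had the lowest median of the subunit groups, -0.17 for the anxiety cue with vehicle and -0.14 for CBD with the neutral cue. All 7 genes were below 0 in both, and 5 and 3 of them had an unadjusted p under 0.05, beside 12.7% and 22.6% of all genes. Without library 6 it was 0 of the 7 in either comparison, with medians of -0.088 and -0.070. Psmb6, the caspase-like site, ran from 61.8 over 78.9 to 114 CPM with vehicle and the neutral cue, from 60.3 over 67.8 to 86.7 with vehicle and the anxiety cue, from 59.8 over 71.2 to 76.8 with CBD and the neutral cue, and from 64.5 over 72.7 to 81.4 with CBD and the anxiety cue. Libraries 4, 6 and 8 of the first group lay above every library of the other 3 groups, and its other 5 overlapped them. Of these, libraries 4 and 8 were high in Slc17a6, at 38.2 and 40.85 plain CPM. The difference was -0.23 ± 0.093 for the cue in vehicle libraries (edgeR adjusted p = 0.374) and -0.23 ± 0.093 for CBD with the neutral cue (adjusted p = 0.157). Without library 6 these values were -0.15 and -0.15. Without the libraries high in Plin1 they were -0.49 and -0.40 (edgeR adjusted p = 0.00778 and 0.0128). That setting keeps only libraries 6, 7 and 8 of the vehicle neutral-cue group, and 7 and 8 were high in Slc17a6. In it 16.9% and 15.7% of all genes passed in these comparisons.

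Psmb5, the chymotrypsin-like site, ran from 61.7 over 78.9 to 101 CPM with vehicle and the neutral cue, from 62.6 over 69.6 to 78.5 with vehicle and the anxiety cue, from 63.4 over 67.8 to 78.7 with CBD and the neutral cue, and from 61.3 over 71.3 to 78.9 with CBD and the anxiety cue. The lowest values of the 4 groups nearly coincided, and the first group reached higher. The differences were -0.17 ± 0.077 for the cue with vehicle and -0.18 ± 0.077 for CBD with the neutral cue (edgeR adjusted p = 0.385 and 0.174). Psmb7, the trypsin-like site, ran from 134 over 166 to 213 CPM with vehicle and the neutral cue and from 138 over 151 to 164 with vehicle and the anxiety cue, a difference of -0.13 ± 0.079 (adjusted p = 0.458). Without library 6 the cue difference was -0.10 for Psmb5 and -0.065 for Psmb7.

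Among the ring neighbours without a proteolytic site, the cue difference in vehicle libraries was -0.16 ± 0.068 for Psmb1, -0.17 ± 0.083 for Psmb3, -0.17 ± 0.084 for Psmb4 and nearer 0 for Psmb2, at -0.065 ± 0.077, with edgeR adjusted p of 0.376 to 0.686. Library 6 was the top library for each. Without it Psmb2 was at 0.022, Psmb1 at -0.088, Psmb3 at -0.11 and Psmb4 at -0.079. Psmb3 has 10 named copies in the RefSeq table and Psma6 has 5, and 15 members have 39 such copies in all. None of these copies has a row of its own in the count table, so that the handling of reads shared with them is unknown and these levels are uncertain.

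The promoters of the 3 catalytic genes are shown because proteasome genes are known targets of Nfe2l1, a factor that binds the antioxidant response element. All 3 genes were below 0 in both comparisons, a trait shared by 34 of the 38 subunits. Windows of 300 bases, from 250 before to 50 after the start of the gene, come from RefSeq (build GRCr8), which had an entry for 34 of the 39 members. Both strands were searched for the element's core TGACNNNGC and for the CCAAT box, and matches are in capitals. Psmb5 lies at chr15:32047330-32047629, minus strand, Psmb6 at chr10:55737638-55737937, plus strand, Psmb7 at chr3:42827421-42827720, minus strand, Psmb2, a neighbour whose match overlaps a CCAAT box, at chr5:144254808-144255107, plus strand, and Psmd4, a cap gene with 2 CCAAT boxes and no TGACNNNGC, at chr2:185297152-185297451, minus strand.
Psmb5: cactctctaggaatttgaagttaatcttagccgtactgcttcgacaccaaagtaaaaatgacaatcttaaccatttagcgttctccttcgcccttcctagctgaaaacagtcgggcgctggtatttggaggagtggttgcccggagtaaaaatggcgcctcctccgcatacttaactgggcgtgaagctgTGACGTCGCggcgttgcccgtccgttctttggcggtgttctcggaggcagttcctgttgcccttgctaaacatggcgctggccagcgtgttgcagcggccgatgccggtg
Psmb6: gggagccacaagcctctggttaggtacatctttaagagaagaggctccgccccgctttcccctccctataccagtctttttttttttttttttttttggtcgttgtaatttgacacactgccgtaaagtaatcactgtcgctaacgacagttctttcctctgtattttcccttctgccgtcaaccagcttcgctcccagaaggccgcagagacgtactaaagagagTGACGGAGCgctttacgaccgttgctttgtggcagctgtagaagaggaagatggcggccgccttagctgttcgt
Psmb7: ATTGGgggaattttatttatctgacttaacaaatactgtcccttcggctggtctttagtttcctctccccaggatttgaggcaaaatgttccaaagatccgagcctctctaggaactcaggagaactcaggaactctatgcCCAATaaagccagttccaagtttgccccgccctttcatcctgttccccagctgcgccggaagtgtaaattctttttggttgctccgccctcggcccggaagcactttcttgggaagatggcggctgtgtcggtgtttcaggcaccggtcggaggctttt
Psmb2: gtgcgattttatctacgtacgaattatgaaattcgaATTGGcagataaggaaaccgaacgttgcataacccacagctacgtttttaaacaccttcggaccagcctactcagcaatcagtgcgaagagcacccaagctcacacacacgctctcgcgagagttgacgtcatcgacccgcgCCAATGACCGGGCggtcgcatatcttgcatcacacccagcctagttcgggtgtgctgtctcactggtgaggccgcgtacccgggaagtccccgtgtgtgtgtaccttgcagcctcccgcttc
Psmd4: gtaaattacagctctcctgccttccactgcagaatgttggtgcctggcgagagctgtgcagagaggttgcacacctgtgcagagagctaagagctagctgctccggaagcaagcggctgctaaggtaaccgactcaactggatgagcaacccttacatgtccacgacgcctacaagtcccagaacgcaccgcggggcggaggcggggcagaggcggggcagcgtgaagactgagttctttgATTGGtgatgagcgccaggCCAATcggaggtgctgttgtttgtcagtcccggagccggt
In Psmb5 the TGACNNNGC match starts 60 bases before the gene, in Psmb6 24 bases before it, and in Psmb2 68 bases before it, where it overlaps a CCAAT box, while Psmb7 has 2 CCAAT boxes and no TGACNNNGC. TGACNNNGC was in 7 of 34 member promoters (20.6%), 4 of 17 in the core and 3 of 17 in the cap, and in 12.1% of 33469 promoters of the same length. CCAAT was in 18 of 34 (52.9%), 11 of 17 in the core and 7 of 17 in the cap, and in 37.5% of all. A match describes letters in this window alone, and binding was not measured.

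The inducible beta genes replace the catalytic ones in the immunoproteasome, which interferon raises, and were sparse in this tissue. Psmb8 ran from 2.34 over 2.93 to 3.91 CPM with vehicle and the neutral cue and from 1.83 over 2.75 to 3.47 with vehicle and the anxiety cue. Psmb9 ran from 1.17 over 1.58 to 2.12 CPM and from 0.958 over 1.42 to 2.23 CPM in the same groups. These ranges overlapped almost wholly, and the differences, -0.12 ± 0.18 and -0.13 ± 0.21, were smaller than their errors. Psmb10 ran from 10.4 over 15.4 to 20.2 CPM and from 12.6 over 14.1 to 15.8 CPM, a difference of -0.085 ± 0.11 (-0.009 without library 6). Psmb11, the beta subunit of the thymic cortex, was at 0.307 to 1.43 CPM over all 32 libraries, with a difference of 0.13 ± 0.26. The 95% intervals were -0.48 to 0.24 for Psmb8, -0.56 to 0.30 for Psmb9 and -0.41 to 0.67 for Psmb11, and each holds both 0 and the median of the constitutive ring.

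**Figure D4:**
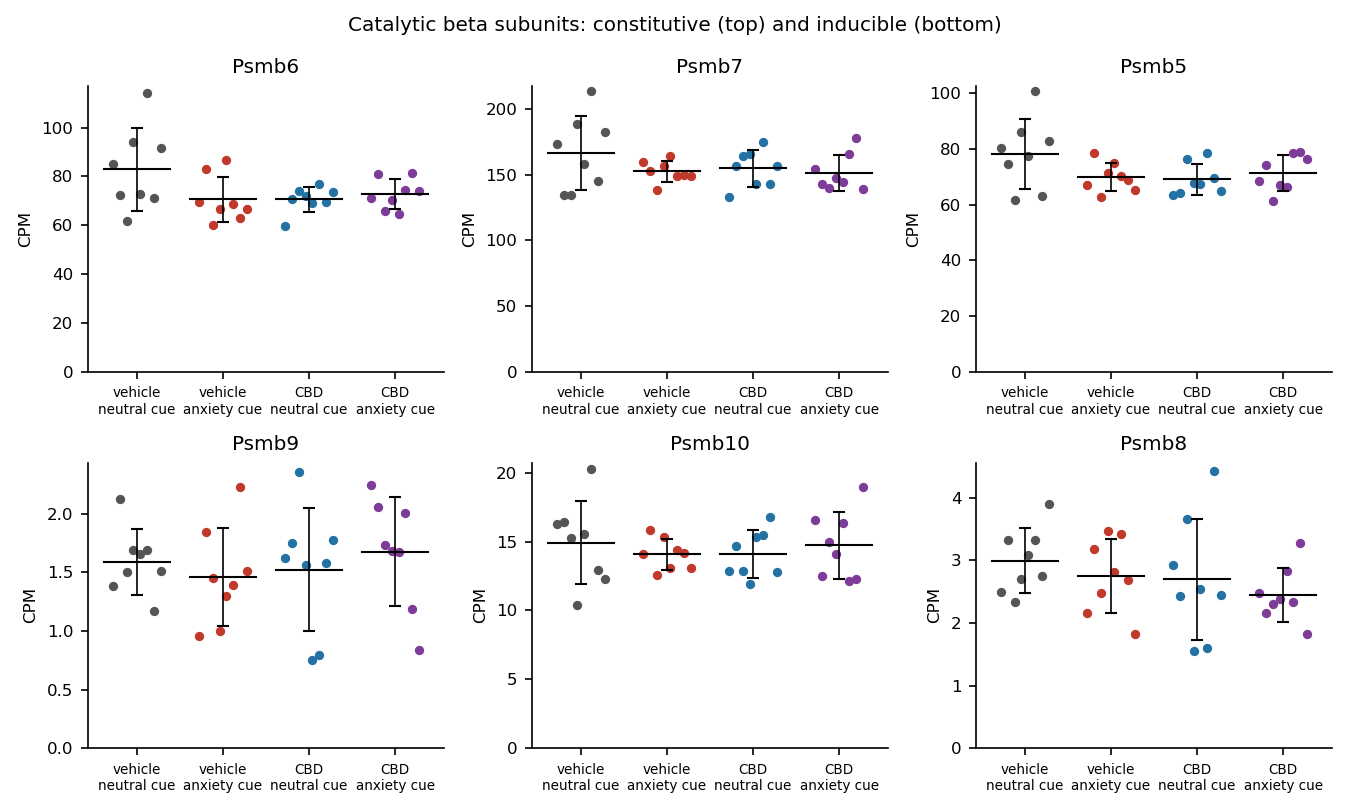
CPM (vertical axes, from 0) of the 3 constitutive catalytic genes (top) and of the inducible genes that replace them (bottom) in each library by group; lines and bars are the mean and SD (n = 8). The constitutive genes have their top value in the vehicle neutral-cue group, up to 114, 213 and 101 CPM, while Psmb8 and Psmb9 lie under 5 CPM in all groups.

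The base of the cap holds the 6 ATPases that unfold substrates, and all 6 were below 0 in both comparisons, with medians of -0.14 and -0.12. Psmc5 ran from 164 over 188 to 237 CPM with vehicle and the neutral cue, from 142 over 163 to 216 with vehicle and the anxiety cue, from 146 over 162 to 194 with CBD and the neutral cue, and from 149 over 157 to 209 with CBD and the anxiety cue. Libraries 4, 6 and 8 of the first group (4 and 8 were high in Slc17a6) were above all libraries of the other 3. Its difference was -0.25 ± 0.089 for the cue with vehicle and -0.26 ± 0.089 for CBD with the neutral cue (edgeR adjusted p = 0.374 and 0.123), the lowest log2 fold change of the 38 subunits in each. Without library 6 the values were -0.21 and -0.22. Without the libraries high in Plin1 they were -0.46 and -0.42 (edgeR adjusted p = 0.00856 and 0.00941), where 16.9% and 15.7% of all genes passed. The 4 composition covariates were the mean levels of the oligodendrocyte, septal and subcortical, cortical and choroid plexus lists. With them Psmc5 was at -0.14 and -0.15.

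Psmc2 ran from 104 over 129 to 156 CPM with vehicle and the neutral cue, from 104 over 112 to 126 with vehicle and the anxiety cue, from 102 over 114 to 120 with CBD and the neutral cue, and from 103 over 116 to 128 with CBD and the anxiety cue. The first group began where the others did and reached higher. It had the smallest unadjusted p of the subunits for the cue in vehicle libraries, 0.00833 (edgeR adjusted p = 0.374), at -0.18 ± 0.065, and was at -0.16 ± 0.065 for CBD with the neutral cue (adjusted p = 0.153). Psmc1 was at -0.18 ± 0.081 in the latter (adjusted p = 0.188). Without the libraries high in Plin1, Psmc2 was at -0.32 and -0.28 (edgeR adjusted p = 0.0124 and 0.0175). Psmc1 was then at -0.32 for CBD with the neutral cue (edgeR adjusted p = 0.016). In that setting 16.9% of all genes passed for the cue and 15.7% for CBD. With the covariates Psmc1 was at -0.069 for CBD with the neutral cue.

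The other base subunits bind ubiquitin and its shuttles, and differed among themselves. Psmd4, a ubiquitin receptor, ran from 43.0 over 51.6 to 58.5 CPM with vehicle and the neutral cue, from 40.9 over 43.5 to 53.5 with vehicle and the anxiety cue, from 41.2 over 42.9 to 46.9 with CBD and the neutral cue, and from 39.0 over 43.7 to 51.5 with CBD and the anxiety cue. With CBD and the neutral cue all 8 libraries were at 46.9 CPM or less, while 5 of the 8 vehicle libraries with that cue were at 51.6 CPM or more. For CBD with the neutral cue it was at -0.23 ± 0.065, with the smallest unadjusted p of the subunits, 0.00128, an edgeR adjusted p of 0.0916 and a DESeq2 adjusted p of 0.0422. Leaving out each library in turn gave -0.26 to -0.20 and edgeR adjusted p of 0.0557 to 0.23. For the cue in vehicle libraries it was at -0.17 ± 0.065. With the composition covariates Psmd4 was nearer 0, at -0.156 for CBD with the neutral cue and -0.12 for the cue. Without the libraries high in Plin1 it was at -0.25 for CBD with the neutral cue and -0.27 for the cue (edgeR adjusted p = 0.026 and 0.0276). Of all genes, 15.7% and 16.9% passed in that setting. Psmd1 and Psmd2, the large scaffold subunits, were at -0.010 ± 0.062 and -0.004 ± 0.053 for the cue, with 95% intervals of -0.14 to 0.12 and -0.11 to 0.11.

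The lid removes the ubiquitin chain, and 6 of its 8 genes were below 0 for the cue in vehicle libraries, with a median of -0.084. Psmd14, the deubiquitinase, ran from 34.1 over 49.8 to 64.2 CPM with vehicle and the neutral cue and from 39.8 over 47.1 to 50.9 CPM with vehicle and the anxiety cue. Both ends of the first range lay outside the second, and the difference was -0.083 ± 0.082 (edgeR adjusted p = 0.625), or -0.020 without library 6. Psmd8 was at -0.14 ± 0.066, Psmd6 at -0.084 ± 0.046 and Psmd12 at -0.16 ± 0.086 (adjusted p = 0.385, 0.414 and 0.40). Without library 6 Psmd8 was at -0.082. With the composition covariates Psmd12 was at -0.039 and Psmd6 at -0.053. Without the libraries high in Plin1 they were at -0.39 and -0.18 (edgeR adjusted p = 0.00852 and 0.0371), where 16.9% of all genes passed. The chaperones that assemble the base were at -0.011 ± 0.068 for Psmd5, -0.002 ± 0.062 for Psmd9 and -0.17 ± 0.090 for Psmd10. Psmd10 stood at 59.8 CPM in library 6 and at 35.6 to 43.5 CPM in the other 7 libraries of its group, and the difference was -0.081 without library 6.

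Several subunits, of cap and core, were also high in the 6 libraries with 20 plain CPM or more of Slc17a6, while others were low. This division was chosen after the data were seen and was not made for all genes. Psmd12 was at 110 to 141 CPM in these 6 libraries, with a median of 127, and at 85.8 to 125 CPM in the other 26, with a median of 98.4. Psmc5 was at 188 to 236 CPM against 142 to 237 CPM, with medians of 212 and 163. Library 6 of the vehicle neutral-cue group held the top value among the 26 for both, and the next was 118 CPM for Psmd12 and 194 CPM for Psmc5. Psmc1, Psmd4 and Psmb6 had medians higher by 0.31, 0.27 and 0.26 on the log2 scale in the 6 libraries, whereas Psma7 and Psmc3 differed by 0.024 and 0.030. In the core the difference was below 0 for Psmb11 (-0.42), Psmb10 (-0.28), Psmb9 (-0.22), Psmb2 (-0.093), Psma5 (-0.087) and Psma2 (-0.046). In the cap it was below 0 for Psmd8 (-0.12), Psmd13 (-0.11), Psmd7 (-0.049) and Psmd3 (-0.013). Of the 6 libraries 3 are in the vehicle neutral-cue group, 1 in the vehicle anxiety-cue group, none in the CBD neutral-cue group and 2 in the CBD anxiety-cue group. The septal and subcortical list itself was at a median of -0.60 for the cue in vehicle libraries, with 7 of 8 genes below 0, and medium spiny neuron markers were at 0.45, with 10 of 10 above 0. Other lists also departed from 0. Below 0 were microglia (-0.152, 10 of 10), astrocytes (-0.097, 6 of 6) and oligodendrocytes (-0.087, 6 of 7). Fat (-0.736, 4 of 5), cortical (-0.758, 2 of 3) and choroid plexus markers (-0.538, 2 of 3) were also below 0. Endothelial and mural markers (0.201, 6 of 6) and liver markers (1.174, 4 of 4) were above 0. The part of these cells in the subunit values was not tested.

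Calls appeared when libraries were left out. Without the 10 libraries with 5 plain CPM or more of Plin1, which leaves libraries 6, 7 and 8 in the vehicle neutral-cue group, 8 subunits passed for the cue in vehicle libraries, all lower with the anxiety cue, beside 16.9% of all genes: Psmd4, Psmc2, Psmc1, Psmb6, Psmb3, Psmc5, Psmd12 and Psmd6, at -0.49 to -0.18. For CBD with the neutral cue 6 passed (15.7% of all genes), and for the interaction 5 (8.4%). The medians were then -0.21 in the core and -0.17 in the cap for the cue, and -0.20 and -0.14 for CBD with the neutral cue. Leaving out library 6 as well, a setting chosen after the data were seen, keeps 2 vehicle neutral-cue libraries, both high in Slc17a6. Then Psmb6, Psmc5 and Psmd12 passed for the cue (20.2% of all genes), Psmc5 and Psmd12 for CBD with the neutral cue (18.8%) and Psmd12 for the interaction (14.8%), and the core median for the cue was 0.003. Without the 7 libraries high in Slc17a6 or Slc17a7, 0 subunits passed in any comparison, beside 0.0754% of all genes for the cue with vehicle and 0.104% for CBD with the neutral cue. The medians for the cue in vehicle libraries were -0.17 in the core and -0.11 in the cap.

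**Figure D5:**
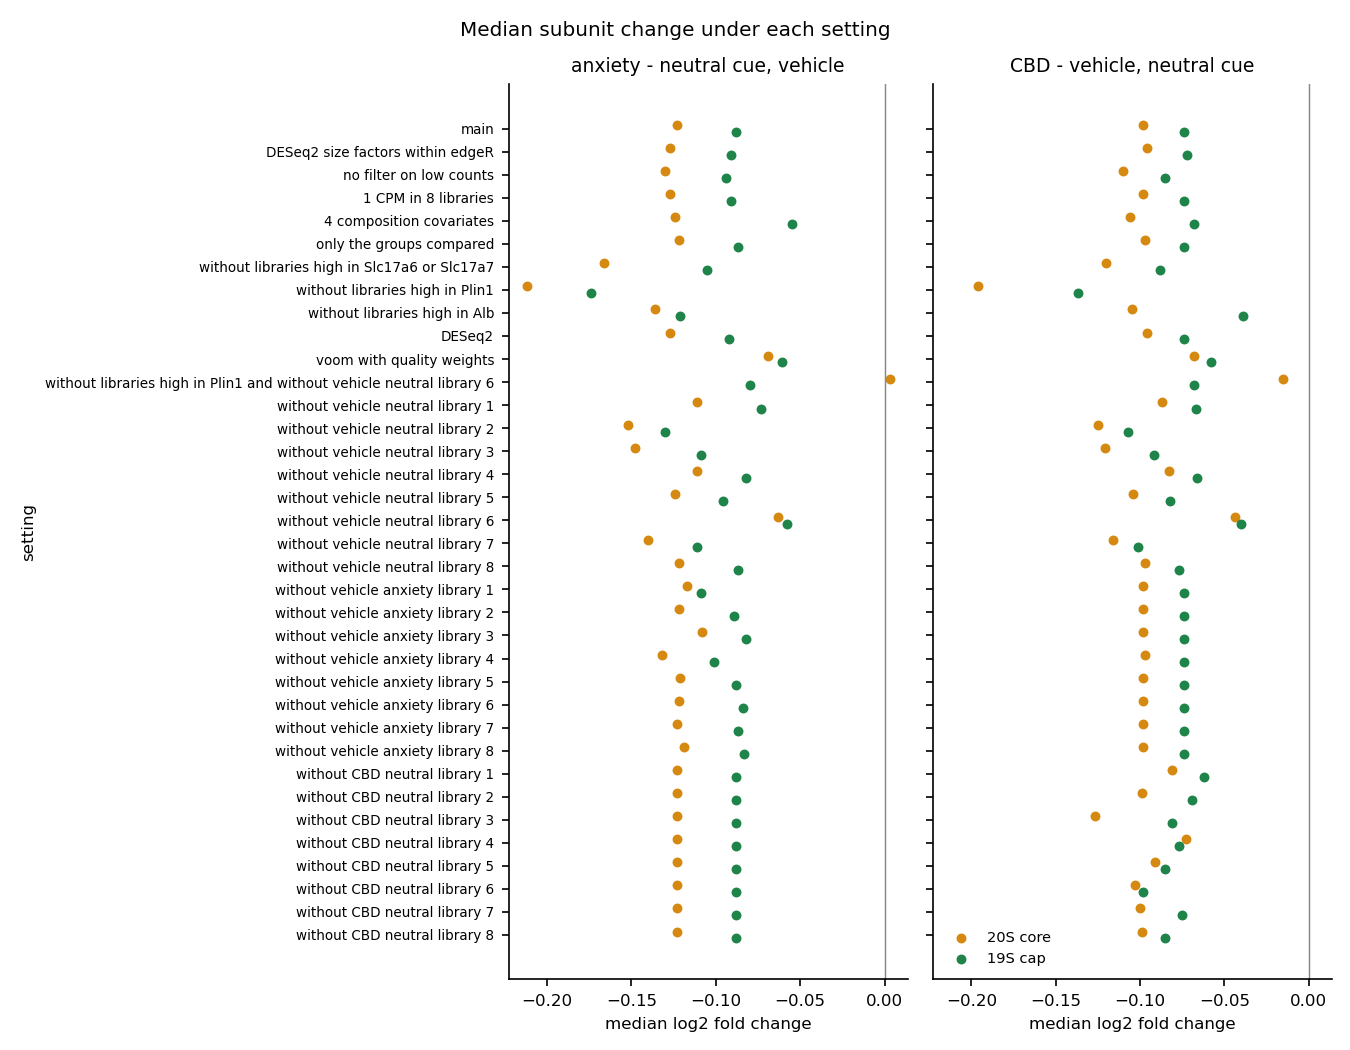
Median log2 fold change (horizontal axis) of the 20S core (orange) and 19S cap (green) genes under each setting (vertical axis) for the anxiety cue with vehicle (left) and CBD at the neutral cue (right); leaving out libraries of the CBD anxiety-cue group is not drawn. Leaving out vehicle neutral-cue library 6 moves the core from -0.12 to -0.063 on the left and from -0.098 to -0.044 on the right.

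Genes that work with the proteasome were described from a list of 36: activators, assembly factors, ubiquitin genes, shuttles and transcription factors. None passed the threshold (0% of all genes). For the cue in vehicle libraries 24 were below 0 (49.9% of all genes), and 7 had an unadjusted p under 0.05 (12.7% of all genes), of which 6 were lower (6.34% of all genes). Without library 6, 3 had an unadjusted p under 0.05, 2 of them lower, beside 12.1% of all genes. Psmg1, a chaperone of the core, ran from 30.9 over 42.3 to 52.3 CPM with vehicle and the neutral cue and from 29.9 over 33.9 to 40.2 CPM with vehicle and the anxiety cue, at -0.26 ± 0.082 (edgeR adjusted p = 0.374). Pomp, which matures the core, was at -0.18 ± 0.073, and Rps27a, a ubiquitin fusion gene, at -0.25 ± 0.097. Psme4, an activator of the core in place of the cap, had the other sign, at 0.24 ± 0.10. Without library 6 Pomp was at -0.095 and Rps27a at -0.13. Without the libraries high in Plin1, Psmg1 passed at -0.54 and Pomp at -0.35 (edgeR adjusted p = 0.00348 and 0.0318), beside 16.9% of all genes.

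For CBD with the neutral cue 26 of the 36 were below 0 (49.1% of all genes), and 6 had an unadjusted p under 0.05, 5 lower and 1 higher, a share under the 22.6% of all genes. Psme1 and Psme2, the subunits of the 11S activator, were at -0.40 ± 0.15 and -0.31 ± 0.11 (edgeR adjusted p = 0.133 and 0.129). With the composition covariates they were at -0.045 and -0.11, and with voom quality weights at -0.25 and -0.18. Without the libraries high in Plin1, Psme1 passed at -0.59 (edgeR adjusted p = 0.0117), beside 15.7% of all genes. Without library 6 as well it passed at -0.61 (edgeR adjusted p = 0.0163), beside 18.8% of all genes, and Psme2 was at -0.18. Psme2 ran from 20.6 over 24.5 to 28.8 CPM with vehicle and the neutral cue and from 13.9 over 19.9 to 24.3 CPM with CBD and the neutral cue, so the groups overlapped. Nfe2l1 was at -0.046 ± 0.053 for the cue with vehicle and at -0.082 ± 0.053 for CBD with the neutral cue, both within 2 SE of 0.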

How the data were processed

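The authors deposited whole-number read counts for 34322 symbols in 32 libraries, and these were used unaltered. The submitters' processing notes name STAR, featureCounts and DESeq2, and 2 builds, Rnor_6.0 and mRatBN7.2, without their use; versions and the strand setting are not given in the sources used here. Overlapping genes, which 11 members have, are therefore uncertain. RefSeq names (GRCr8) matched 27234 symbols.

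Counts were fitted with edgeR 4.0.16 in R 4.3.3 (TMM, filterByExpr by group, quasi-likelihood test, 1 mean per group, all 32 libraries together), with Benjamini-Hochberg adjustment over 17059 genes kept. Log2 fold changes carry their standard error (SE), and log2 CPM a prior count of 2. Library totals of 11.65 to 24 M counts set the precision for sparse genes. The scripts were tested on simulated data.

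The members and the gene lists were chosen with earlier results of these data known. Genes named by a rule are the 2 members of each subunit group with the smallest p for the cue in vehicle libraries, the 3 with the smallest p in each comparison, the catalytic genes, Psmd4, Psmd14, and the members with the highest and lowest mean. Group levels are given for only some of these genes, and for some of them in only part of the groups. Psmc1, Psmb4, Psma5, Psma7, Psmc3, Psmd3, Psmd7, Psmd9 and Psmd13 were named after their values were seen. Alternatives were DESeq2 1.42.0, its size factors, other count filters, covariates of tissue composition, only the groups compared, libraries left out, and limma 3.58.1 voom with quality weights, the last added after the data were seen. Ttr and mitochondrially encoded proteins' genes are not analysed here.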

Additional observations from a re-analysis of the deposited data

Results flagged for a closer look

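Of 104 sets of 8 values tested for a single library far from the rest of its group, 6 stood out, and chance gives about 1 in 20, here 5. Psmd10 was at 59.8 CPM in vehicle neutral-cue library 6, with the next library at 43.5 CPM. Psmd12 was at 134.7 CPM in vehicle anxiety-cue library 5, with the next at 101.8 CPM; this library is one of those high in Slc17a6. In the CBD neutral-cue group, library 1 was low for Psmb6, at 59.82 CPM (next 68.99), and for Psmc2, at 101.9 CPM (next 112.9). In the same group Psmd1 was high in library 6, at 177.1 CPM (next 149.7), the library with 938 CPM of the cortical gene Slc17a7, and Psmd4 was high in library 3, at 46.85 CPM (next 43.5).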

How the results depend on the processing

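Under the settings tried, the count of subunits past the threshold departed from 0 as follows. Without libraries high in Plin1 it was 8 of 38 for the cue in vehicle libraries (16.9% of all genes), 6 for CBD with the neutral cue (15.7%) and 5 for the interaction (8.4%). Without vehicle neutral-cue library 6 as well it was 3, 2 and 1, under the shares of all genes (20.2%, 18.8% and 14.8%), and the core median for the cue was 0.003; only 2 libraries of that group then remain. DESeq2 gave 1, for CBD with the neutral cue. The cause was not tested. Leaving out each of the 32 libraries gave 0 calls in every comparison. The median for the cue in vehicle libraries ranged from -0.152 to -0.063 in the core and from -0.13 to -0.058 in the cap, and for CBD with the neutral cue from -0.127 to -0.044 and from -0.107 to -0.04. The upper end came each time without vehicle neutral-cue library 6. With all libraries and the 4 composition covariates, the cap median for the cue in vehicle libraries was -0.055.

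Signs turned in the cue comparison of vehicle libraries. With 4 composition covariates Psmb11 was at -0.084, Psmd1 at 0.053, Psmd2 at 0.031 and Psmd5 at 0.015. Without libraries high in Slc17a6 or Slc17a7, Psmb11 was at -0.019, Psmd1 at 0.048 and Psmd2 at 0.025, and without those high in Alb, Psmb9 was at 0.026 and Psmd2 at 0.002. Voom with quality weights put Psmd1 at 0.012 and Psmd5 at 0.022. Without libraries high in Plin1 and library 6, Psma2 was at 0.024, Psmb2 at 0.095, Psmb9 at 0.048, Psmb10 at 0.155, Psmd5 at 0.005 and Psmd8 at 0.106, where Psma2 and Psmd8 were at -0.124 and -0.139 with all libraries. Leaving out 1 library gave -0.104 to 0.022 for Psmb2, -0.066 to 0.021 for Psmd1, -0.029 to 0.021 for Psmd2 and -0.048 to 0.021 for Psmd5. Counts were few for Psmb8, Psmb9 and Psmb11, with SE of 0.176, 0.21 and 0.264. No paired analysis was possible because the labels give no replicate numbers, and those used follow the order of deposition.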

Other observations

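CBD neutral-cue library 1 was the lowest of the 32 libraries for 9 of 38 subunits, and for 1.29% of all genes. Its mean log2 CPM relative to all libraries was -0.143 for the constitutive core and -0.138 for the cap. In vehicle neutral-cue library 2, the lowest for 10 subunits, the values were -0.14 and -0.148. In these libraries core and cap were low by like amounts, whereas in vehicle neutral-cue library 6 the core was higher than the cap by 0.207. Vehicle neutral-cue library 1 came next in that difference, at 0.104.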
